A study of Mus musculus with 7 samples.

Results

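The 10 genes described here mark or direct regulatory T cells (Treg) that have left the lymph nodes, settled in tissue and taken on an effector state. They were taken by name from a list of 3 receptors (Klrg1, Il1rl1 and Ccr8) and 7 transcription factors (Gata3, Prdm1, Batf, Irf4, Maf, Pparg and Nfil3). All 10 were found among the 53465 gene identifiers of the count table, each had counts in every library, and each passed the low-count filter into the 14784 genes tested. The libraries were made from CD4+ CD25+ cells, the surface phenotype of Treg, that were isolated from mouse liver by fluorescence activated cell sorting. NCD denotes wild type C57BL/6 mice fed a normal control diet (2 libraries). MCD denotes wild type mice on a methionine/choline-deficient diet, a diet commonly used to produce steatohepatitis in mice (2 libraries). CD73-MCD denotes mice without the ectoenzyme CD73 on that same deficient diet (3 libraries). Feeding lasted 4 weeks in all 3 groups. The labels give no age or sex, do not say whether the deletion is limited to a cell type, and hold no knockout on the control diet, so diet and genotype cannot be told apart in the comparison of CD73-MCD with NCD. Nor do they say if each replicate is its own animal, so the p-values reflect how these libraries vary among themselves, and part of that variation may be technical.

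Treg that settle in tissue are thought to pass through a programme started by the partner factors BATF and IRF4, which open the chromatin of effector genes after antigen receptor signalling. GATA3 and the IL-33 receptor ST2, encoded by Il1rl1, support each other in these cells, and IL-33 released by injured tissue expands them. Blimp-1 (Prdm1), c-MAF and PPAR-gamma (Pparg) mark effector or tissue-adapted Treg, with IL-10 production among the functions tied to the first pair, while KLRG1 and CCR8 are surface receptors used to recognise such cells.

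The libraries differed more in the cells they held than in depth. Summed counts were between 19731501 and 24398738 per library, so 3 counts, the limit that a count of 0 allows, equal 0.129 to 0.158 CPM (counts scaled to a common library size), covering counting error only. Nt5e, which encodes CD73, had 87.6 to 243 CPM in the 4 wild type libraries and 5.88 to 14.5 CPM in the 3 knockout libraries, without overlap. Every library held T cell and Treg RNA: the 12 pan T cell genes summed to 5649 to 14683 CPM and the 10 Treg core genes to 3126 to 6095 CPM, and Foxp3, the defining Treg factor, had 108 to 287 CPM. The largest genes of the Treg core list in every library were Capg and Il2rb, which therefore weigh most in the Treg core scale used below. In MCD-2, Capg had 1434 and Il2rb 668 CPM of a sum of 3126 CPM. The part of cells other than Treg in the Treg core sum was not tested. RNA of macrophages was also present, and it separated libraries of the same group. The sum of 13 Kupffer cell and macrophage genes was 10812 and 1180 CPM in NCD, 2426 and 32952 CPM in MCD, and 12730, 9545 and 7430 CPM in CD73-MCD, with 12 of the 13 counted in every library. MCD-2 therefore had 13.6 times the macrophage sum of MCD-1 and 0.476 times its pan T cell sum. Lyz2 alone made up most of each macrophage sum. It had 7757 and 845 CPM in NCD, 1837 and 26675 CPM in MCD, and 11324, 8374 and 6151 CPM in CD73-MCD. The order of libraries differed for C1qa, which had 587 and 49.4 CPM in NCD and 115 to 162 CPM in CD73-MCD. In CD73-MCD against NCD, 6 of the 13 genes had a fitted log2 fold change above 0 and 7 below it. In such bulk libraries, fewer cells of a type and less RNA per cell cannot be told apart.

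Per length of transcript, the receptor Ccr8 stood highest of the 10 genes and the nuclear receptor Pparg lowest. Levels between genes are given as CPM per kilobase of annotated exon, averaged over the 7 libraries. Ccr8 reached 835 ± 465 on that scale (SD, n = 7), Klrg1 310 ± 82.9, Gata3 128 ± 36.8 and Nfil3 83.7 ± 25.6. Ccr8 lay between the 98.9th and 99.8th percentile of tested genes in every library, and Klrg1 between the 97.1st and 99.2nd, whereas Pparg lay between the 28.9th and 75.9th. In the middle of the order were Il1rl1 at 41.9 ± 12.1, Batf at 38.2 ± 11.9 and Prdm1 at 30.0 ± 4.74 CPM per kilobase. Irf4 at 20.4 ± 10.7, Maf at 13.3 ± 3.59 and Pparg at 8.30 ± 3.76 closed it. The step from Klrg1 to Gata3 and the step from Nfil3 to Il1rl1 held in all 7 libraries. The other neighbours changed places in at least 1 library: Ccr8 stood above Klrg1 in 6 of 7, Gata3 above Nfil3 in 6, Il1rl1 above Batf in 5, Batf above Prdm1 in 5, Prdm1 above Irf4 in 6, Irf4 above Maf in 5 and Maf above Pparg in 6.

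**Figure D1:**
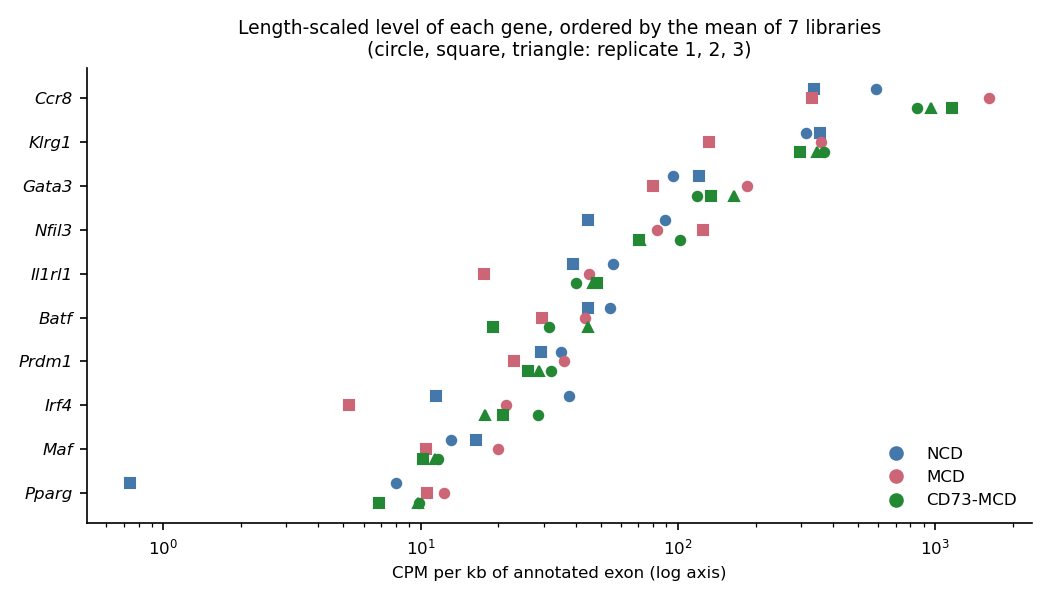
Level of each gene in each library as CPM per kilobase of annotated exon on a logarithmic horizontal axis, with genes on the vertical axis ordered by their 7-library mean. Colours mark the groups NCD, MCD and CD73-MCD, and shapes mark replicates; Ccr8 has the highest mean, 835, and the Pparg point of NCD-2 stands alone at 0.742.

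None of the 10 genes passed the test in any comparison. With edgeR's quasi-likelihood test and Benjamini-Hochberg adjustment over all tested genes, 0 of 10 were called on the deficient diet (MCD against NCD), 0 of 10 in knockout against wild type on that diet (CD73-MCD against MCD), and 0 of 10 in CD73-MCD against NCD. The background was the same, with 0% of the 14784 genes called in each comparison. At an unadjusted p under 0.05 the counts were again 0 of 10 in each comparison, against 6.00%, 3.25% and 8.97% of all tested genes. DESeq2 called 0 of 10 as well, against 2.07%, 0.286% and 3.99% of the genes it tested, and limma voom called 0 of 10 and 0 genes in all. The smallest unadjusted edgeR p was 0.147 for Ccr8 in MCD against NCD, 0.213 for Maf in CD73-MCD against MCD and 0.117 for Ccr8 in CD73-MCD against NCD. The edgeR adjusted p-values of the 10 genes ran from 0.826 to 1 in the first comparison, were 1 throughout in the second, and ran from 0.620 to 1 in the third.

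The directions were also evenly divided. In each comparison 5 of the 10 genes had a fitted log2 fold change above 0 and 5 below it. Their median was -0.039 in MCD against NCD, -0.0014 in CD73-MCD against MCD and -0.031 in CD73-MCD against NCD, where the medians of all tested genes were 0.045, -0.032 and 0.056. The intervals show how little these groups of 2 and 3 libraries can resolve: the narrowest 95% intervals, those of Prdm1, reached from -0.87 to 0.63, from -0.71 to 0.66 and from -0.84 to 0.53 on the log2 scale. Those of Pparg reached from -0.75 to 3.52, from -2.32 to 1.56 and from -0.94 to 2.95. A p-value that misses the threshold therefore does not show that a gene was at the same level in the groups.

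**Figure D2:**
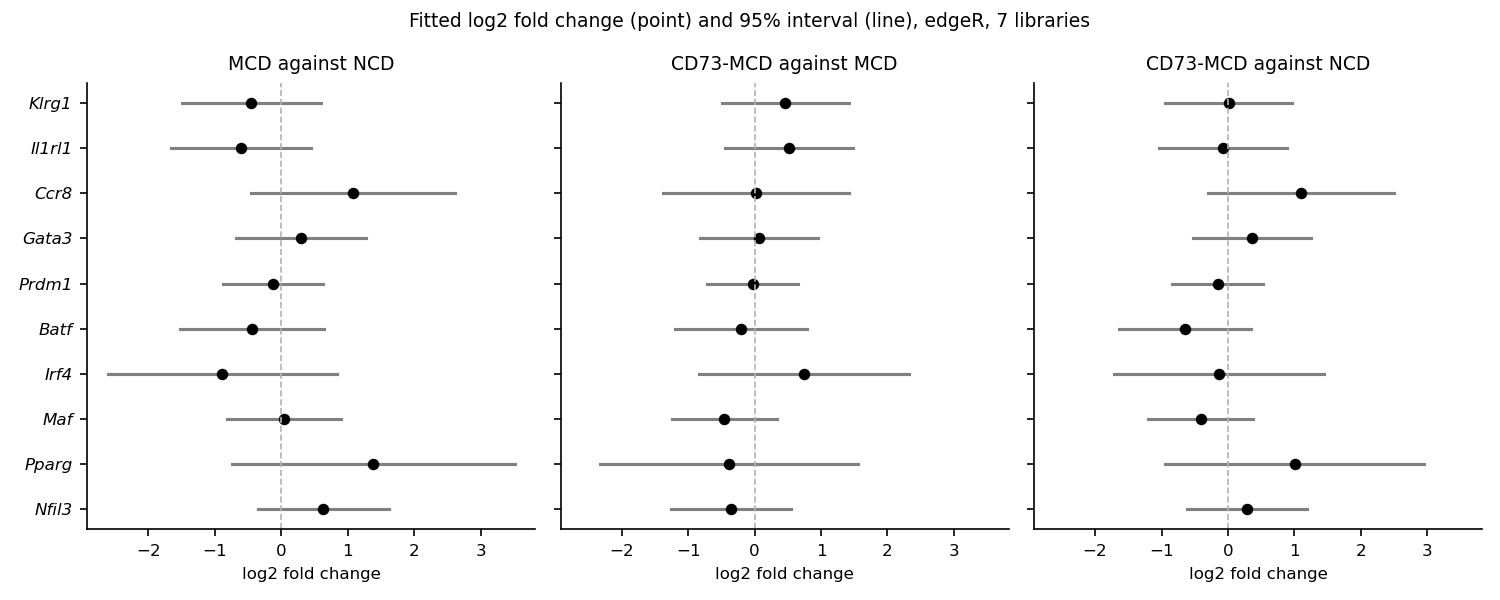
Fitted log2 fold change of each gene (points) with its 95% interval (lines) in the 3 comparisons, from edgeR on all 7 libraries, with log2 fold change on the horizontal axis. All 30 intervals include 0.

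Among the receptors, Ccr8 had the largest gap between replicates of a group. Ccr8 (ENSMUSG00000042262, chromosome 9, 120092114 to 120094906, plus strand, GRCm38, as are the positions that follow) overlaps no other annotated gene. CCR8 is a chemokine receptor for CCL1 that is carried by Treg of tissues and tumours. Its level was 688 and 398 CPM in NCD, 1899 and 389 CPM in MCD, and 994, 1368 and 1132 CPM in CD73-MCD. MCD-1 was the highest of the 7 libraries and MCD-2 the lowest, a 4.88-fold gap within 1 group, while the 3 knockout libraries lay close together and above both control-diet libraries. The log2 fold change was 1.10 in CD73-MCD against NCD (SE 0.60, 95% interval -0.30 to 2.50), 1.08 in MCD against NCD (-0.46 to 2.61) and 0.026 in CD73-MCD against MCD (-1.38 to 1.43). Without MCD-1 the value of MCD against NCD was -0.50, and without MCD-2 it was 1.81, so the sign rested on which library stood for the group. The value of CD73-MCD against MCD was likewise 1.62 without MCD-1 and -0.71 without MCD-2.

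Klrg1 and Il1rl1 shared a simpler picture, in which 6 libraries were close and MCD-2 stood below them. KLRG1 is a C-type lectin-like inhibitory receptor that binds cadherins. Its gene (ENSMUSG00000030114, chromosome 6, 122270596 to 122282882, minus strand) had 444 and 502 CPM in NCD, 507 and 186 CPM in MCD, and 521, 423 and 490 CPM in CD73-MCD. MCD-1 lay among the other groups' libraries, so the groups overlapped. The Klrg1 log2 fold change was -0.45 in MCD against NCD (95% interval -1.50 to 0.60), 0.47 in CD73-MCD against MCD (-0.49 to 1.42) and 0.014 in CD73-MCD against NCD (-0.94 to 0.97). Without MCD-2 the first was 0.10 and the second was -0.085, and without MCD-1 they were -1.365 and 1.40. NK cells can also carry KLRG1: the sum of 12 NK and ILC1 genes was 133 and 109 CPM in NCD, 374 and 761 CPM in MCD and 369 to 449 CPM in CD73-MCD, and Ncr1, their activating receptor NKp46, was at 0 in both NCD libraries. The part of NK cells in the Klrg1 values was not tested.

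Il1rl1 (ENSMUSG00000026069, chromosome 1, 40429570 to 40465415, plus strand) encodes ST2, the receptor chain that binds IL-33. It had 386 and 269 CPM in NCD, 312 and 121 CPM in MCD, and 275, 334 and 323 CPM in CD73-MCD. NCD-1 was highest and MCD-2 lowest, and the knockout libraries fell between those of NCD. The log2 fold change was -0.60 in MCD against NCD (95% interval -1.65 to 0.46), 0.52 in CD73-MCD against MCD (-0.44 to 1.48) and -0.076 in CD73-MCD against NCD (-1.04 to 0.89). Without MCD-2 the first value was -0.070 and the second -0.0050, and without MCD-1 they were -1.45 and 1.39. Group 2 innate lymphoid cells (ILC2) and mast cells also carry ST2. The sum of 8 ILC2 genes was 280 and 129 CPM in NCD, 271 and 177 CPM in MCD, and 164 to 203 CPM in CD73-MCD, with Il13 and Il5 at 1.36 and 2.09 CPM or less. Outside MCD-2, most of that sum was Rora and Il9r, which are also among the tissue Treg genes listed here. Over all libraries they had 72.3 to 202 and 12.9 to 37.3 CPM. In MCD-2 the largest gene of the ILC2 list was Hpgds, at 82.8 CPM. The sum of 10 mast cell and basophil genes was 78.8 and 5.54 CPM in NCD, 42.9 and 182 CPM in MCD, and 27.5 to 43.2 CPM in CD73-MCD, with Mcpt4, Mcpt1, Tpsb2 and Fcer1a at 0 in all 7 libraries and Cpa3 at 9.30 CPM or less. Outside MCD-1, nearly all of that sum was Hdc, with 77.3 and 5.41 CPM in NCD and 165 CPM in MCD-2. In MCD-1 Hdc had 32.3 CPM and Cpa3 9.30 CPM. The part of these cells in the Il1rl1 values was not tested.

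Short DNA upstream of Il1rl1 and Ccr8 is shown because GATA3 is itself one of the 10 genes and the letters of its core motif occur there. A search of the 250 bases before each RefSeq start site (GRCm38.p6) for the letters AGATAA or, on the other strand, TTATCT found them in 4 of the 11 windows that the table holds for 8 of the 10 genes, with no window for Klrg1 or Maf. The 4 were both windows of Il1rl1, that of Ccr8 and that of Batf, and 9.99% of all 32851 windows in the table held the letters. The matched letters are in capitals, all sequences are on the + strand, and the Ccr8 window stops where its annotated exon begins. The second Il1rl1 window lies inside the gene, before an internal start site. A match is a description of these letters, not a binding site.
Il1rl1, chr1:40429320-40429569: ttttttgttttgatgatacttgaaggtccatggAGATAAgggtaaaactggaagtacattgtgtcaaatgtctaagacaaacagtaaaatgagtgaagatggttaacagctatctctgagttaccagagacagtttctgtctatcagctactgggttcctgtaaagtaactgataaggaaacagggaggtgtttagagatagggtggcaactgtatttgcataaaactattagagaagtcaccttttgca
Il1rl1 internal start, chr1:40439379-40439628: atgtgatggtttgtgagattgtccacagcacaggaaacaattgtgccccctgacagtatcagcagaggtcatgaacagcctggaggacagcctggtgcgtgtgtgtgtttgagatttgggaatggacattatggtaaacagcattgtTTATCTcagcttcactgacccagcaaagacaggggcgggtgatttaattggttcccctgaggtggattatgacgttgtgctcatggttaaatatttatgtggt
Ccr8, chr9:120091883-120092113: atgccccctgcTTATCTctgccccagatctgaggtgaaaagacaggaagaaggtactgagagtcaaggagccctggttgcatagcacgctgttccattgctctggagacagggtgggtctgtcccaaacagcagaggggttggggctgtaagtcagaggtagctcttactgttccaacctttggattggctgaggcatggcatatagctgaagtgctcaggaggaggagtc
Other motifs were sparse in the same 11 windows: the AP-1 letters TGANTCA, searched on both strands as were the rest, occurred in 1 (Prdm1; 6.75% of all windows), the short MAF element TGCTGAC in 1 (Ccr8; 3.81%), and the interferon-response element (2.98%), the Blimp-1 letters AAAGTGAAA (0.511%) and the NFIL3 D-box TTACGTAA (0.113%) in 0.

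Gata3, which directs type 2 T cells and stabilises Treg in tissue, was the most abundant of the 7 transcription factors. It had 380 and 480 CPM in NCD, 736 and 319 CPM in MCD, and 471, 532 and 656 CPM in CD73-MCD. Both extremes of the series were the 2 MCD libraries, so MCD overlapped both other groups. NCD and CD73-MCD overlapped narrowly, with NCD-2 at 480 CPM and CD73-MCD-1 at 471 CPM. The log2 fold change was 0.29 in MCD against NCD (95% interval -0.68 to 1.27), 0.068 in CD73-MCD against MCD (-0.83 to 0.96) and 0.36 in CD73-MCD against NCD (-0.53 to 1.26). Without MCD-1 the values of the first 2 comparisons were -0.45 and 0.83, and without MCD-2 they were 0.78 and -0.41. Gata3 (ENSMUSG00000015619, chromosome 2, 9857078 to 9890034, minus strand) shares exonic bases with 9230102O04Rik on its own strand and Gm13256 on the other, and a strand setting of the counting was not found in these sources.

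Prdm1 was the steadiest of the 10 genes and Irf4 among the most variable. Prdm1 (ENSMUSG00000038151, chromosome 10, 44437177 to 44528501, minus strand) encodes Blimp-1, a repressor that fixes effector fate, and had 196 and 163 CPM in NCD, 201 and 128 CPM in MCD, and 179, 145 and 160 CPM in CD73-MCD. Its highest library was 1.57 times its lowest, and the 3 groups overlapped. Irf4 (ENSMUSG00000021356, chromosome 13, 30749226 to 30766976, plus strand), whose product is induced by antigen receptor signals, had 185 and 56.2 CPM in NCD, 105 and 25.8 CPM in MCD, and 139, 102 and 87.5 CPM in CD73-MCD. In both wild type groups replicate 1 was far above replicate 2, by 3.29-fold in NCD and 4.06-fold in MCD, and the knockout libraries lay inside the NCD range. The Irf4 log2 fold change was -0.89 in MCD against NCD (95% interval -2.61 to 0.84), 0.75 in CD73-MCD against MCD (-0.83 to 2.33) and -0.14 in CD73-MCD against NCD (-1.71 to 1.44). The first value was -2.25 without MCD-1, -0.20 without MCD-2, 0.22 without NCD-1 and -1.50 without NCD-2, the second was 2.125 without MCD-1 and 0.064 without MCD-2, and the third was 0.96 without NCD-1 and -0.75 without NCD-2. Irf4 and Prdm1 are also used by plasma cells and B cells: the sum of 9 B cell genes was 114 to 169 CPM in NCD, 187 and 325 CPM in MCD and 1283, 1197 and 359 CPM in CD73-MCD, the sum of 7 plasma cell genes was 449 and 221 CPM in NCD, 493 and 830 CPM in MCD and 357 to 412 CPM in CD73-MCD, and the plasma cell gene Jchain was at 0 in CD73-MCD-1 and CD73-MCD-2. Outside MCD-2, most of the plasma cell sum was Xbp1. That gene had 264 and 180 CPM in NCD, 314 and 365 CPM in MCD, and 295, 386 and 301 CPM in CD73-MCD. The part of plasma cells and B cells in the Irf4 and Prdm1 values was not tested.

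Batf, the partner of IRF4, was lower in both MCD libraries than in both NCD libraries. The gene (ENSMUSG00000034266, chromosome 12, 85686669 to 85709087, plus strand) had 76.5 and 62.9 CPM in NCD, 60.9 and 41.7 CPM in MCD, and 44.3, 26.9 and 62.5 CPM in CD73-MCD. NCD lay above both other groups without overlap, but by little. NCD-2 had 62.9 CPM, against 60.9 CPM in the nearest library of MCD and 62.5 CPM in that of CD73-MCD. The log2 fold change was -0.44 in MCD against NCD (95% interval -1.52 to 0.64), -0.20 in CD73-MCD against MCD (-1.19 to 0.78) and -0.64 in CD73-MCD against NCD (-1.63 to 0.34). The first value was -0.76 without MCD-1 and -0.19 without MCD-2. The sum of pan T cell genes was also lower in all 3 knockout libraries than in either NCD library. Against that sum, the separation of NCD from both other groups was gone. Batf had 7.47 and 4.28 counts per 1000 pan T cell counts in NCD, 5.13 and 7.39 in MCD, and 6.44, 3.35 and 7.49 in CD73-MCD.

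Maf was lower in all 3 knockout libraries than in both NCD libraries, and Pparg lower than in both MCD libraries. Maf encodes c-MAF, which drives Il10, and had 108 and 135 CPM in NCD, 164 and 86.1 CPM in MCD, and 96.3, 83.8 and 94.0 CPM in CD73-MCD. MCD spanned the whole range of the other 2 groups apart from the lowest knockout library. The Maf log2 fold change was 0.044 in MCD against NCD (95% interval -0.82 to 0.91), -0.45 in CD73-MCD against MCD (-1.24 to 0.33) and -0.41 in CD73-MCD against NCD (-1.20 to 0.38). The second value was 0.12 without MCD-1 and -0.85 without MCD-2. Per 1000 pan T cell counts Maf had 10.6 and 9.17 in NCD and 14.0, 10.4 and 11.3 in CD73-MCD, which overlap, and the fitted value of CD73-MCD against NCD with T cell scaling was 0.27, so the direction turned. Maf (ENSMUSG00000055435, chromosome 8, 115682942 to 115707794, minus strand) overlaps the exons of Gm15655 on the other strand, so without strand their reads cannot be told apart.

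Pparg, the lipid-sensing nuclear receptor known from Treg of fat, was scarce and rested on 1 low library. The gene (ENSMUSG00000000440, chromosome 6, 115360951 to 115490399, plus strand, with Gm44079 inside it on the other strand) had 23.7 and 2.19 CPM in NCD, 36.5 and 31.2 CPM in MCD, and 29.0, 20.4 and 28.7 CPM in CD73-MCD. The NCD-2 value came from 51 counts, against 450 to 785 counts in the other 6 libraries, and the 2 NCD libraries differed 10.8-fold. The log2 fold change was 1.39 in MCD against NCD (95% interval -0.75 to 3.52) and 1.01 in CD73-MCD against NCD (-0.94 to 2.95), and these values were 0.52 and 0.14 without NCD-2 but 3.95 and 3.57 without NCD-1 (edgeR adjusted p = 0.379 and 0.226). It was -0.38 in CD73-MCD against MCD (-2.32 to 1.56). Macrophages also carry Pparg: NCD-2 had the lowest macrophage sum of the series at 1180 CPM. MCD-1, with the next lowest sum (2426 CPM), had the highest Pparg level of the series. The part of macrophage RNA in the Pparg values was not tested.

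Nfil3, a basic leucine zipper repressor of clock-controlled genes that T cells also use, was highest in the library where most of the other genes were lowest. The gene (ENSMUSG00000056749, chromosome 13, 52967209 to 52981073, minus strand) had 181 and 90.4 CPM in NCD, 168 and 253 CPM in MCD, and 207, 143 and 145 CPM in CD73-MCD. It was highest in MCD-2, where Klrg1, Il1rl1, Gata3, Prdm1, Irf4 and Ccr8 were each at their lowest, and lowest in NCD-2. The order followed the macrophage gene Lyz2 at both ends, with 26675 CPM of Lyz2 in MCD-2 and 845 CPM in NCD-2, and the part of macrophages in it was not tested. The log2 fold change was 0.63 in MCD against NCD (95% interval -0.35 to 1.62), -0.35 in CD73-MCD against MCD (-1.25 to 0.55) and 0.28 in CD73-MCD against NCD (-0.62 to 1.18). The first value was 1.22 without NCD-1 and 0.23 without NCD-2, the second was -0.58 without MCD-1 and -0.027 without MCD-2, and the third was 0.87 without NCD-1 and -0.13 without NCD-2.

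**Figure D3:**
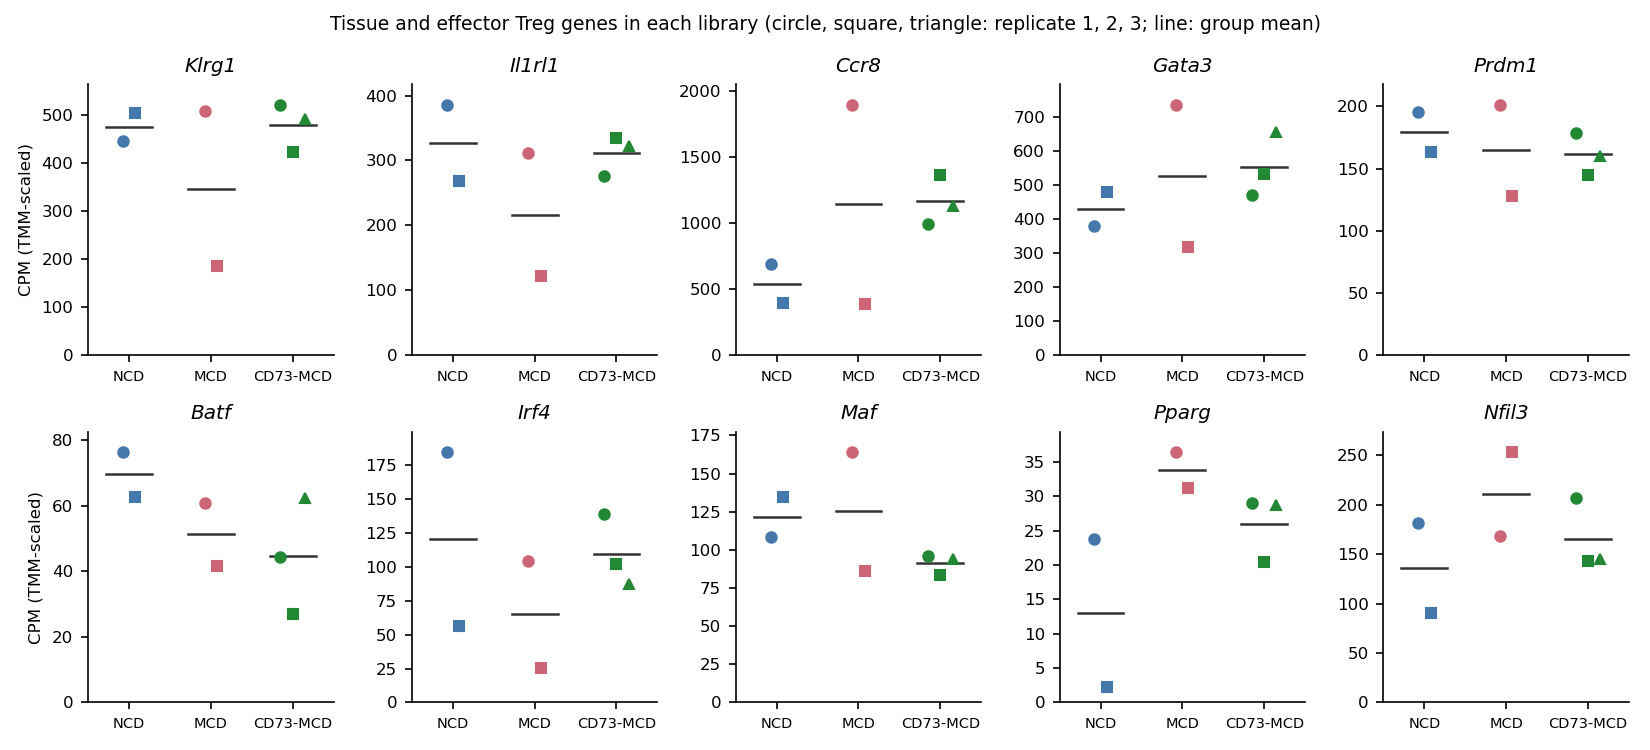
CPM of each gene in each library on the vertical axes, which start at 0, by group on the horizontal axes, with a line at each group mean. The 2 MCD libraries lie far apart for Ccr8, at 1899 and 389 CPM, and Pparg has 1 library, NCD-2, at 2.19 CPM.

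Whole groups were separated for a share of the 10 genes that was near or below the share over the table. In CPM, 2 of 10 did not overlap between MCD and NCD (Pparg higher, Batf lower), against 31.6% of all tested genes. Between CD73-MCD and MCD 1 of 10 did not overlap (Pparg lower), against 18.0%, and between CD73-MCD and NCD 3 of 10 did not (Ccr8 higher, Batf and Maf lower), against 26.1%. The 2 MCD libraries stood in different places. Without MCD-2, the remaining MCD library was above both NCD libraries for 6 of 10 genes (Klrg1, Gata3, Prdm1, Ccr8, Maf and Pparg; 31.5% of all tested genes), and all 3 knockout libraries were below it for 5 of 10 (Gata3, Prdm1, Ccr8, Maf and Pparg; 24.1%).

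**Figure D4:**
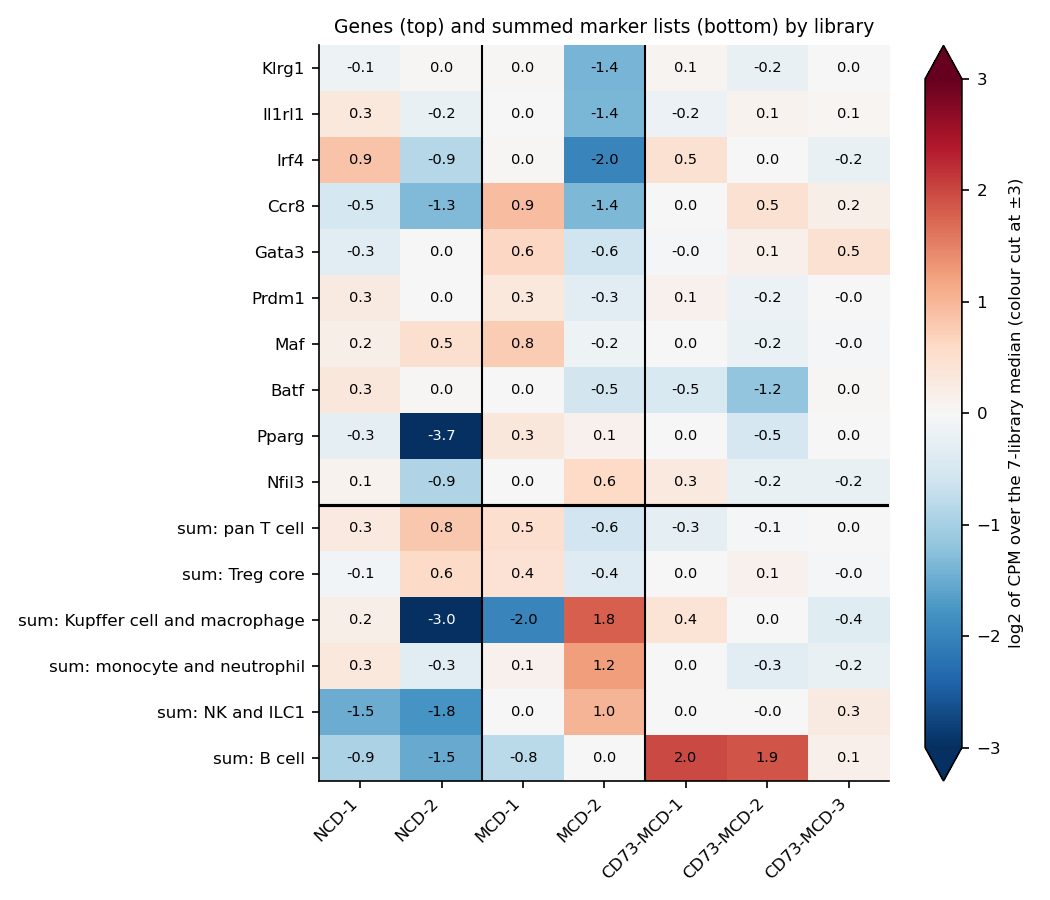
Each cell is the log2 ratio of a library's CPM to the median of the 7 libraries, for the 10 genes (rows above the line) and for the summed CPM of 6 marker lists (rows below it), with libraries in columns by group. MCD-2 has values below 0 for 8 of the 10 genes and for the pan T cell and Treg core sums, and a macrophage sum of 32952 CPM.

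Because the T cell share of the libraries differed, the genes were also read against T cell messages. On the scale of counts per 1000 counts of the 12 pan T cell genes, Klrg1, Il1rl1 and Gata3 were higher in all 3 knockout libraries than in all 4 wild type libraries. These were 3 of the 10 genes, against 4.88% of all tested genes. The separation was not particular to them, as Foxp3 and the Treg core gene Il2ra met the same criterion on this scale. Foxp3 had 17.7 and 19.5 in NCD, 11.9 and 19.0 in MCD, and 27.9, 20.9 and 26.1 in CD73-MCD. Il2ra had 31.2 and 41.4 in NCD, 66.6 and 34.2 in MCD, and 85.7, 95.8 and 72.3 in CD73-MCD. Cd3e and Cd4, which are part of the pan T cell sum, did not meet it. In CPM the same criterion held for 0 of 10 genes, against 3.53%, and on the scale of the 10 Treg core genes for 0 of 10, against 3.41%. Klrg1 had 43.3 and 34.2 per 1000 pan T cell counts in NCD, 42.7 and 32.9 in MCD, and 75.6, 52.7 and 58.7 in CD73-MCD. Replicates came closer on this scale in some groups and moved apart in others: the Klrg1 gap went from 2.73-fold in CPM to 1.30-fold in MCD and from 1.13-fold, with NCD-2 higher, to 1.27-fold, with NCD-1 higher, in NCD, the Il1rl1 gap from 2.57-fold to 1.22-fold in MCD and from 1.44-fold to 2.06-fold in NCD, and the Pparg gap in NCD from 10.8-fold to 15.5-fold. Gata3 had 37.1 and 32.7 in NCD, 62.0 and 56.5 in MCD, and 68.3, 66.3 and 78.6 in CD73-MCD, so that all 3 groups were in separate ranges. Il1rl1 had 37.7 and 18.3 in NCD, 26.2 and 21.5 in MCD, and 40.0, 41.6 and 38.7 in CD73-MCD, which put NCD-1 just under the lowest knockout library.

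The separation depended on the denominator. Pan T cell messages were themselves low in the knockout libraries, at 6891, 8022 and 8354 CPM, against 10244 and 14683 CPM in NCD. Taken singly as the denominator, 7 of the 12 pan T cell genes left Klrg1 higher in every knockout library than in every wild type library, 5 did so for Il1rl1 and 4 for Gata3; Cd3e did so for none of them, and neither did Foxp3. The whole table was also shifted on this scale. In CD73-MCD against NCD the median log2 ratio of group means was 0.60 for the 10 genes and 0.67 for all tested genes, and in MCD against NCD it was 0.48 and 0.68. Between CD73-MCD and MCD, where the pan T cell sums overlapped, the median was 0.18 for the 10 genes and -0.039 for all tested genes.

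By comparison, 4 of 10 genes were higher without overlap per pan T cell count in MCD against NCD (Gata3, Ccr8, Maf and Pparg; 26.8% of all tested genes), and 5 in CD73-MCD against NCD (Klrg1, Il1rl1, Gata3, Ccr8 and Pparg; 31.6%). In CD73-MCD against MCD the count was 4 (Klrg1, Il1rl1, Gata3 and Irf4; 7.56%), and without MCD-2 it was 6 (Klrg1, Il1rl1, Gata3, Prdm1, Irf4 and Nfil3; 45.2%). Without MCD-2, Klrg1, Il1rl1 and Gata3 were still the 3 that were higher in every knockout library than in every remaining wild type library, and the share of all tested genes that were so was then 24.8%. No gene was called by edgeR when libraries were scaled to the pan T cell sum.

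**Figure D5:**
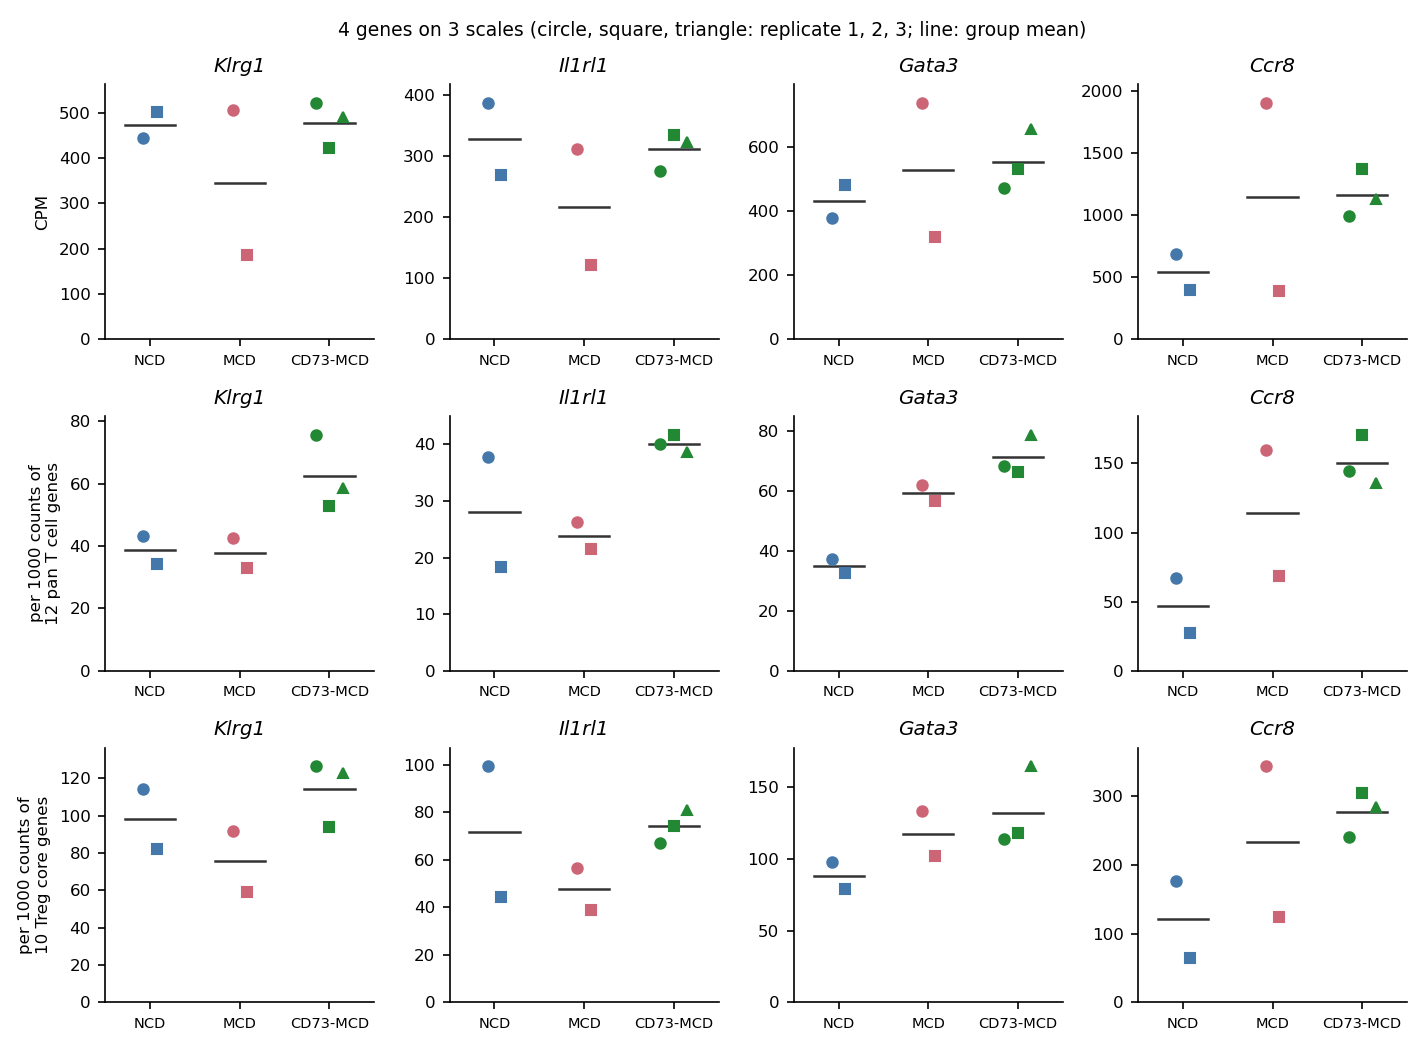
Klrg1, Il1rl1, Gata3 and Ccr8 in each library on 3 scales (rows): CPM, counts per 1000 pan T cell counts and counts per 1000 Treg core counts, by group on the horizontal axes, with a line at each group mean and axes that start at 0. In the middle row the 3 knockout libraries of Klrg1, from 52.7 to 75.6, lie above all wild type libraries; in the other rows they overlap them.

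Genes that work with the 10 were read from 9 lists of partners, ligands and products, 106 genes of which 99 were tested. In MCD against NCD 66 of the 99 had a fitted value above 0, against 52.3% of all tested genes, and 0 were called by edgeR after adjustment, with 12 at an unadjusted p under 0.05, against 6.00%. In CD73-MCD against MCD 47 were above 0 (47.9% of all tested genes), 0 were called and 5 had such a p (3.25%). In CD73-MCD against NCD 59 were above 0 (52.8%), 0 were called and 18 had such a p (8.97%). Most of the genes named here are the most abundant and the smallest p of their list.

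Of the 11 genes listed for the IL-33 pathway around ST2, 10 had counts in every library. Il1rap, 1 of them, had 18.6 and 31.6 CPM in NCD and 16.1 and 28.3 CPM in MCD. In CD73-MCD it had 14.5, 1.77 and 20.7 CPM. Il33 itself had no count in any library, and Myd88, the adaptor that ST2 signals through, had 151 and 110 CPM in NCD, 141 and 270 CPM in MCD, and 91.6, 103 and 125 CPM in CD73-MCD. All 3 knockout libraries were thus below both MCD libraries (log2 fold change -0.95, edgeR unadjusted p = 0.029, adjusted p = 1). MCD-1 lay between the NCD libraries, and MCD-2, the highest for Myd88, also had the highest macrophage sum (32952 CPM). The part of macrophages in the Myd88 values was not tested. Sigirr, an inhibitory receptor of that family, had 170 and 200 CPM in NCD, 147 and 92.9 CPM in MCD, and 104, 126 and 79.1 CPM in CD73-MCD (log2 fold change -0.85 in CD73-MCD against NCD, edgeR unadjusted p = 0.033, adjusted p = 0.533). Of the 10 tested genes of the list, 7 were above 0 in MCD against NCD, 3 in CD73-MCD against MCD and 2 in CD73-MCD against NCD, where 52.3%, 47.9% and 52.8% of all tested genes were.

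Among the partners of GATA3, the type 2 cytokines Il4, Il5 and Il13 averaged 0.854, 0.299 and 0.417 CPM, while Ets1, a T cell factor, was abundant. Ets1 had 2283 and 3159 CPM in NCD, 1824 and 1448 CPM in MCD, and 1234, 1520 and 1519 CPM in CD73-MCD. Both NCD libraries were above all others (log2 fold change -0.93 in CD73-MCD against NCD, edgeR unadjusted p = 0.0081, adjusted p = 0.404). Lef1, a factor of naive and memory T cells listed among the counterparts of Blimp-1, had the same shape: 278 and 493 CPM in NCD, 158 and 173 CPM in MCD, and 168, 166 and 236 CPM in CD73-MCD (log2 fold change -1.22 in MCD against NCD, edgeR unadjusted p = 0.011, adjusted p = 0.731). Id2, the most abundant of that list and a factor of effector lymphocytes, had 1044 and 217 CPM in NCD, 1277 and 1013 CPM in MCD, and 1409, 1271 and 1273 CPM in CD73-MCD. The pan T cell sum was also lower in MCD-2 (5649 CPM) and in CD73-MCD (6891 to 8354 CPM) than in NCD (10244 and 14683 CPM). In MCD-1, at 11872 CPM, it lay between the NCD libraries. The part of T cell share in the Ets1 and Lef1 values was not tested.

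The partners of BATF and IRF4 had median log2 fold changes of 0.95 in MCD against NCD, -0.077 in CD73-MCD against MCD and 1.17 in CD73-MCD against NCD over 11 genes, where the medians of all tested genes were 0.045, -0.032 and 0.056. The first and last of these are the values of Junb, the middle gene of the list in both. Irf8, which macrophages, dendritic cells and B cells also use, had 92.1 and 20.9 CPM in NCD, 278 and 674 CPM in MCD, and 471, 363 and 520 CPM in CD73-MCD. NCD lay below both other groups without overlap (log2 fold change 3.07 in MCD against NCD, edgeR unadjusted p = 0.0037, adjusted p = 0.655). The sum of 10 dendritic cell genes, which include Irf8, was 333 and 189 CPM in NCD, 589 and 1225 CPM in MCD, and 984, 638 and 1406 CPM in CD73-MCD, and their part was not tested. Junb and Jun, AP-1 subunits with which BATF can pair, differed in pattern. Jun had 1247 and 1208 CPM in MCD against 2894, 3019 and 2513 CPM in CD73-MCD, without overlap (log2 fold change 1.19, edgeR unadjusted p = 0.022, adjusted p = 1), but 2899 and 1076 CPM in NCD. Junb had 2384 and 1161 CPM in NCD, 2888 and 3949 CPM in MCD, and 2991, 3346 and 5605 CPM in CD73-MCD.

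Lipid genes linked to PPAR-gamma varied with MCD-2. Lpl, lipoprotein lipase, had 32.3 and 4.72 CPM in NCD, 80.3 and 897 CPM in MCD, and 275, 155 and 188 CPM in CD73-MCD, and Cd36, a fatty acid transporter, had 57.1 and 7.69 CPM in NCD, 34.9 and 504 CPM in MCD, and 83.8, 61.6 and 116 CPM in CD73-MCD. Plin2, which coats lipid droplets, was likewise highest in MCD-2 (572 CPM) and lowest in NCD-2 (73.9 CPM), the libraries with the highest and lowest macrophage sums. The part of macrophages, which carry all of these messages, was not tested. In the MAF list the most abundant gene was Maf1, a polymerase III repressor that is not a MAF family factor, with 224 to 316 CPM over the libraries. Among the clock genes read with Nfil3, Cry1 had 27.9 and 53.9 CPM in NCD, 107 and 118 CPM in MCD, and 52.9, 40.2 and 69.7 CPM in CD73-MCD, so that both MCD libraries were above all 5 others (log2 fold change 1.45 in MCD against NCD, edgeR unadjusted p = 0.012, adjusted p = 0.731). Bhlhe40 had 456 and 76.8 CPM in NCD, 1221 and 417 CPM in MCD, and 983, 1095 and 883 CPM in CD73-MCD. Tef, a PAR bZIP activator that competes with NFIL3 for the D-box, had 3.39 and 5.15 CPM in NCD, 14.2 and 15.6 CPM in MCD, and 26.6, 20.2 and 14.7 CPM in CD73-MCD (log2 fold change 2.26 in CD73-MCD against NCD, edgeR unadjusted p = 0.0051, adjusted p = 0.367).

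Of the other homing receptors, Ccr4 was lower in the knockout libraries than in every wild type library. It had 125 and 206 CPM in NCD, 179 and 111 CPM in MCD, and 52.9, 40.5 and 70.1 CPM in CD73-MCD (log2 fold change -1.41 in CD73-MCD against MCD, edgeR unadjusted p = 0.0066, adjusted p = 1). Cxcr6, which holds lymphocytes in liver, had 37.3 and 23.9 CPM in NCD, 209 and 62.9 CPM in MCD, and 137, 81.8 and 154 CPM in CD73-MCD (log2 fold change 2.15 in MCD against NCD, edgeR unadjusted p = 0.0092, adjusted p = 0.712). Ccr8 differed from both, with MCD-2 at the level of NCD-2. Of the possible ligands, Ccl8 had no count, and Ccl1 had 0.315 to 18.1 CPM. Among the products of tissue Treg, Penk, which encodes the opioid precursor proenkephalin, had 67.1 and 43.0 CPM in NCD, 722 and 94.2 CPM in MCD, and 359, 506 and 366 CPM in CD73-MCD (log2 fold change 2.90 in CD73-MCD against NCD, edgeR unadjusted p = 0.0080, adjusted p = 0.404). Like Ccr8, it was highest in MCD-1, but its MCD libraries lay above both NCD libraries. Cd83, the most abundant of that list, had 255 CPM in NCD-2 and 708 to 2013 CPM in the other 6 libraries.

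The genes most like each of the 10 were found by Pearson's r of log2 CPM over the 7 libraries among 9708 genes that averaged 5 CPM or more. The r is a measure of likeness, with no test, over libraries whose cell makeup differed. Their macrophage sums ran from 1180 to 32952 CPM and their pan T cell sums from 5649 to 14683 CPM. The part of cell makeup in these likenesses was not tested. Irf4 was most like Mir155hg, the host transcript of miR-155 (r = 0.984), and Il10 (r = 0.984). Il10 had 237 and 86.8 CPM in NCD, 183 and 41.3 CPM in MCD, and 198, 153 and 160 CPM in CD73-MCD, which places the same library of each wild type group high as for Irf4. Il1rl1 was most like Acin1 (r = 0.992) and Tnfsf8, the ligand of CD30 (r = 0.989). Klrg1 was most like Gm42856 and Suz12, Gata3 like Chd4 and Ipo8, and Ccr8 like Msi2 and Fbxo33, with r from 0.962 to 0.985. Nfil3 was most like Rbms1 (r = 0.991) and Tollip (r = 0.985), and Pparg like Rps6ka5 and Gapt (r = 0.986 and 0.971), which like Pparg were lowest in NCD-2, at 0.429 and 0.687 CPM. For Prdm1 the nearest were Nsd3 and Ptcd3, for Batf Bora and Phax, and for Maf Mrtfb and Mettl16, with r from 0.961 to 0.977. None of the 10 genes was among the 2 most alike of another of the 10.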

How the data were processed

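RNA-seq libraries of sorted liver CD4+ CD25+ cells were read from 1 table of raw counts per gene, which the authors deposited with 1 column per library. Alignment to GRCm38 used HISAT2 2.1.0, per the submitters' processing notes. The sources used here do not give the counting tool, its annotation and strand setting, or the kit. Gene symbols, positions and exon lengths were added from GENCODE annotation of GRCm38, which held 53360 of the 53465 identifiers. All columns were assigned by library title.

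Counts of all 7 libraries were fitted with edgeR 4.0.16 under R 4.3.3: genes kept by filterByExpr at a minimum count of 10, TMM scaling, a quasi-likelihood fit with 1 coefficient per group, Benjamini-Hochberg adjustment over 14784 genes and a threshold of 0.05. The script was tested on simulated data. Intervals are 95% intervals of the fitted log2 fold change. CPM used TMM library sizes. The T cell and Treg scales divide a gene's count by the summed counts of 12 pan T cell or 10 Treg core genes, times 1000. Totals ran from 19731501 to 24398738 counts, and the counts of replicates differed by more than sampling allows (chi-square over its degrees of freedom 88.7 to 320.1). Between libraries of a group the common coefficient of variation was 91.3%, which limits every comparison.

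The 10 genes, the lists of partners and markers and the tests were chosen with earlier results of these data known, so no list is independent evidence. From each partner list the most abundant gene and the gene with the smallest p in each comparison were eligible to be named; other listed genes, including Il4, Il5, Il13, Il10, Mcpt4, Tpsb2, Mcpt1, Fcer1a, Il33, Ccl1, Ccl8 and Jchain, were named from fixed lists for their presence or absence, and some after their values were seen. Likeness compared each gene with 9708 genes of at least 5 CPM on average. Alternatives were other scalings and filters, DESeq2 1.42.0, limma 3.58.1 voom, robust fits, 2 groups alone, a replicate block and each library left out; Treg scaling, T cell scaling without MCD-2, crossed and same-number blocks on NCD and MCD alone, and single T cell genes as denominators were added after the data were seen. Promoter windows came from RefSeq (GRCm38.p6).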

Additional observations from a re-analysis of the deposited data

How the results depend on the processing

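No alternative called any of the 10 genes, and the counts of called genes among them stayed at 0. Of their 30 fitted log2 fold changes 8 kept their sign under every alternative run, and 61 of 620 alternative values changed sign. The number of the 10 above 0 was 5 in each comparison. It ran from 2 to 7 in MCD against NCD with a library left out, the lowest without MCD-1 and the highest without MCD-2. In CD73-MCD against MCD it ran from 1 (without MCD-2) to 8 (without MCD-1), and was 8 with T cell scaling and without MCD-2. In CD73-MCD against NCD it was 9 with T cell scaling, also without MCD-2. T cell scaling moved the median log2 fold change of all tested genes to 0.71 in both comparisons with NCD, with 78.4% and 81% of genes above 0, and Treg scaling moved it to 0.32 and 0.25. Where a lone library stood for a group, it was assumed to vary like the other groups.

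Signs changed as follows, with log2 fold changes given, and the cause was not tested. With T cell scaling, MCD against NCD gave 0.39 for Prdm1 and 0.091 for Batf, CD73-MCD against MCD gave 0.089 for Prdm1, and CD73-MCD against NCD gave 0.52 for Il1rl1, 0.48 for Prdm1, 0.40 for Irf4 and 0.27 for Maf. With T cell scaling and without MCD-2, MCD against NCD gave 0.14 for Klrg1 and 0.17 for Prdm1, CD73-MCD against MCD gave 0.31 for Prdm1, 0.17 for Batf, -0.0915 for Ccr8, 0.14 for Pparg and 0.62 for Nfil3, and the values of CD73-MCD against NCD were again 0.52, 0.48, 0.40 and 0.27. With Treg scaling, Prdm1 was 0.0082 in MCD against NCD, and Il1rl1 was 0.047 and Prdm1 0.0059 in CD73-MCD against NCD. Upper quartile scaling gave -0.00010 for Maf in MCD against NCD and -0.031 for Klrg1 in CD73-MCD against NCD. Library totals gave 0.055 for Prdm1 in CD73-MCD against MCD and 0.028 for Il1rl1 in CD73-MCD against NCD. Limma voom gave -0.015 for Maf in MCD against NCD and 0.10 for Irf4 in CD73-MCD against NCD.

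Whether the replicate numbers pair the libraries was not settled. Deviations of same-numbered libraries from their group means correlated between -0.1018 and 0.03. In a group of 2 libraries the deviations mirror each other, so NCD and MCD gave a single independent value, -0.1018 for same numbers and 0.1018 for crossed ones. With the replicate block, 0 of 10 genes were called in each comparison, and 4, 5 and 5 were above 0. The block gave -0.014 for Maf in MCD against NCD, -0.023 for Gata3 and 0.00031 for Prdm1 in CD73-MCD against MCD, and -0.047 for Klrg1 and 0.29 for Irf4 in CD73-MCD against NCD. Because NCD and MCD of the same number correlated at -0.1018, a crossed replicate block was added for these groups alone. It called 0 genes and gave -0.025 for Maf, as did the same-number replicate block.

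With 1 library left out, the log2 fold changes in MCD against NCD ran from -1.365 to 0.10 for Klrg1, -1.45 to -0.070 for Il1rl1, -0.45 to 0.78 for Gata3, -0.50 to 0.17 for Prdm1, -0.76 to -0.19 for Batf, -2.25 to 0.22 for Irf4, -0.50 to 1.81 for Ccr8, -0.51 to 0.44 for Maf, 0.52 to 3.95 for Pparg and 0.23 to 1.22 for Nfil3. In CD73-MCD against MCD they ran from -0.085 to 1.40 for Klrg1, -0.0050 to 1.39 for Il1rl1, -0.41 to 0.83 for Gata3, -0.32 to 0.37 for Prdm1, -0.53 to 0.13 for Batf, 0.064 to 2.125 for Irf4, -0.71 to 1.62 for Ccr8, -0.85 to 0.12 for Maf, -0.49 to -0.23 for Pparg and -0.58 to -0.027 for Nfil3. In CD73-MCD against NCD they ran from -0.074 to 0.11 for Klrg1, -0.31 to 0.21 for Il1rl1, 0.20 to 0.55 for Gata3, -0.27 to -0.015 for Prdm1, -0.97 to -0.38 for Batf, -0.75 to 0.96 for Irf4, 0.76 to 1.55 for Ccr8, -0.56 to -0.24 for Maf, 0.14 to 3.57 for Pparg and -0.13 to 0.87 for Nfil3.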
